A study of Mus musculus with 4 samples.

Results

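The 10 neutrophil granule and S100 genes were S100a8, S100a9, Ngp, Camp, Ltf, Lcn2, Mpo, Elane, Retnlg and Mmp9. Transcripts of these genes were measured in CD8αβ+ T cells sorted from the epithelium of the mouse small intestine and from the spleen. Members were every non-control probe whose gene name on the array was one of the listed symbols, and the list was chosen from levels seen on these same arrays. It comprised 12 of the 41174 distinct probes, or 10 of the 27376 gene names on the array. Because the levels themselves selected the genes, they are described below and were not tested.

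The study asked how the transcripts of CD8αβ+ intraepithelial lymphocytes (IELs) differed from those of CD8αβ+ splenocytes (SPLs), which are CD8αβ+ T cells of the spleen. Cells of both groups were sorted from male wild-type mice aged 8 to 12 weeks, each sample was pooled from several mice, and the labels name no treatment. The study's methods describe a sort gate of CD45, CD3, CD8α, CD8β and TCRβ, and lysis of red cells in the spleen preparation. RNA of 2 samples per group was labelled with 1 dye and hybridised to 4 arrays, so that 2 values stood behind each group mean. Slide 1 carried IEL replicate 1 and SPL replicate 2, and slide 2 carried IEL replicate 2 and SPL replicate 1.

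Neutrophils store antimicrobial proteins in granules that are filled in sequence while the cell matures in the bone marrow. Azurophil granules, formed first, hold myeloperoxidase and serine proteases such as neutrophil elastase. Specific granules, formed next, hold lactoferrin, lipocalin 2, cathelicidin and neutrophilic granule protein, and gelatinase granules, formed last, hold matrix metalloproteinase 9. S100A8 and S100A9 are calcium-binding proteins that pair as calprotectin and fill the neutrophil cytosol. T cells are not a usual source of these proteins.

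Each probe is a single-stranded DNA of 60 bases, printed on the glass, to which labelled copies of 1 transcript bind. The letters below are those by which the values in the following paragraphs were read, shown for 7 genes so that the measured stretch of each transcript is known. They run 5′ to 3′ in the sense of the transcript, with the position that the array files give on mouse build mm9.
S100a8 (chr3:90473778-90473837, plus strand): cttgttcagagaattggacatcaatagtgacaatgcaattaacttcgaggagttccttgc
Ngp (chr9:110324266-110324814, plus strand): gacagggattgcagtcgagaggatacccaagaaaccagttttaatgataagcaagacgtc
Camp (chr9:109749992-109750051, minus strand): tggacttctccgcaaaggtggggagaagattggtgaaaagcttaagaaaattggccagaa
Ltf, probe 1 (chr9:110942873-110942932, plus strand): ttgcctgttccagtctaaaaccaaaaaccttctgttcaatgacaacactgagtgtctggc
Ltf, probe 2 (chr9:110938264-110941314, plus strand): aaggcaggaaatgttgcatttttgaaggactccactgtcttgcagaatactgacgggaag
Lcn2 (chr2:32241037-32241281, minus strand): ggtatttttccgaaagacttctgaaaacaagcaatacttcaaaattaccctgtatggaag
Elane (chr10:79350763-79350822, plus strand): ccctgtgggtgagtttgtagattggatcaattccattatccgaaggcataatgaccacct
Mmp9, probe 1 (chr2:164780303-164780362, plus strand): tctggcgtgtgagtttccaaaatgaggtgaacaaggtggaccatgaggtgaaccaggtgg
The 60 letters of the Ngp, Lcn2 and second Ltf probes spread over 549, 245 and 3051 bases of the genome, so each of these probes spans a splice junction. The probe of Mpo at chr11:87617102-87617877, whose letters are not printed, spread over 776 bases. The other members not printed here were S100a9 at chr3:90496585-90496644, Retnlg at chr16:48874468-48874527 and the second Mmp9 probe at chr2:164780620-164780679. The 12 probes held between 35.0% and 55.0% G or C with a median of 45.0%, beside a median of 40% over the 41174 probes of the array.

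The samples labelled IELs did not resemble each other most. Across the 27912 probes tested, IEL replicate 2 correlated with SPL replicate 1, its partner on slide 2, at Pearson's r = 0.992 and with IEL replicate 1 at 0.946, whereas the SPL replicates correlated at 0.986. These correlations run across probes, which are not independent replicates. The 9 genes chosen as CD8 T cell markers were well above background on all 4 arrays, and their summed level, in multiples of the array's 75th percentile, was 743 and 819 in IELs and 842 and 830 in SPLs. Of the 9, 1 was at least 2-fold higher in IEL replicate 2 than in IEL replicate 1, as were 11.7% of all probes. This was Cd2, with log2 levels of 2.27 and 3.76 in IELs and 4.14 and 4.15 in SPLs. The summed level of 8 epithelial markers was 26.7 in IEL replicate 1, 7.32 in IEL replicate 2, 4.06 in SPL replicate 1 and 2.24 in SPL replicate 2. Defa21, an α-defensin of Paneth cells in the intestinal crypt, had log2 levels of 6.15 and 0.31 in IEL replicates 1 and 2 and of -1.12 and -6.5 in SPL replicates 1 and 2, the last of them not well above background. IEL replicate 2 thus stood close to SPL replicate 1 by these measures, and both lay between the other arrays in epithelial markers and Defa21. Whether each sample holds only the cells of its label was not tested, and means over IELs or SPLs depend on it, so the levels of the member genes are given by array. The 75th percentile of signal was 312 and 435 units in IELs and 479 and 605 in SPLs, and between 63.6% and 69.6% of probes were well above background on an array.

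Levels are given as log2 of the scanner's processed signal minus log2 of the array's 75th percentile, so a level of 0 is that percentile. A probe was tested if the scanner software called it well above background on both arrays of at least 1 group. This held for 11 of the 12 probes and 9 of the 10 genes, with Elane left out. For 6 of the 9 genes the SPL arrays alone carried the gene past this filter, so counts and medians over the 9 are descriptions and support nothing. For Ltf and Mmp9, each with 2 probes, the tested probe with the higher mean stands for the gene and is called probe 1.

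S100a8 and S100a9, which encode the subunits of calprotectin, showed the widest gap between the IEL samples. S100a8 had a processed signal of 3.66 units in IEL replicate 1, 2202 in IEL replicate 2, 3321 in SPL replicate 1 and 5126 in SPL replicate 2. Its log2 levels were -6.41, 2.34, 2.79 and 3.08 in the same order. The first of these was not well above background, whereas IEL replicate 2 lay 0.45 below its partner SPL replicate 1. IEL replicate 2 was at least 279-fold above IEL replicate 1, taking the lowest signal well above background as the floor of the dim array. Here and below, folds given as "at least" hold only with this floor and the scanner software's background correction. Under normexp, another correction, the difference for S100a8 was 3.01 on the log2 scale. S100a9 gave 17.3, 12727, 16969 and 23681 units, or log2 levels of -4.17, 4.87, 5.15 and 5.29. This probe was well above background on every array, so that its 527-fold gap between the IEL replicates did not need the floor. The gap still rests on the scanner software's background correction, and under normexp the difference for S100a9 was 5.95 on the log2 scale. Between the SPL replicates S100a8 differed by 0.29 and S100a9 by 0.15 on the log2 scale.

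**Figure D1:**
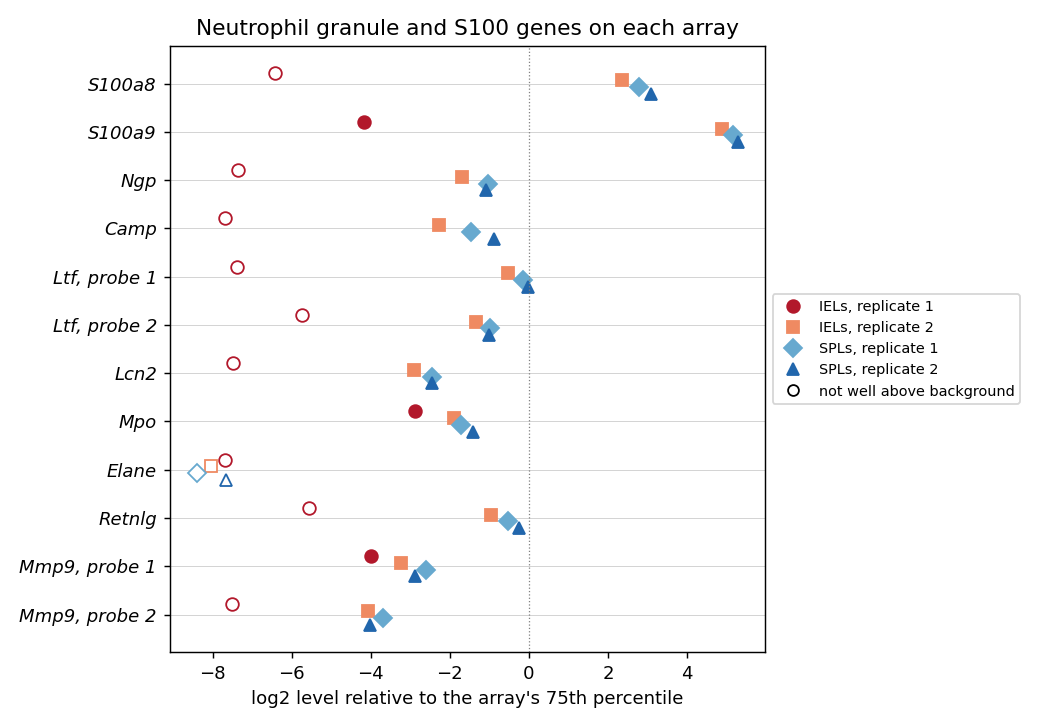
Level of each probe on the 4 arrays, as log2 of the processed signal relative to the array's 75th percentile (horizontal axis). Each point is 1 array, open points were not well above background, and IEL replicate 1 lies left of the other 3 arrays for every probe but that of Elane.

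The specific granule genes followed. Ngp, which encodes neutrophilic granule protein, a relative of the cystatins, had log2 levels of -7.36 in IEL replicate 1, -1.69 in IEL replicate 2, -1.03 in SPL replicate 1 and -1.09 in SPL replicate 2. Camp, the gene for the mouse cathelicidin, read -7.68, -2.28, -1.46 and -0.88. Both genes were not well above background in IEL replicate 1 and were so on the other 3 arrays. From IEL replicate 1 to IEL replicate 2 the difference was at least 17-fold for Ngp and at least 11.3-fold for Camp. Camp was the gene of this set that differed most between the SPL replicates, by 0.57.

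Ltf, which encodes the iron-binding protein lactoferrin, was read by a pair of probes. The first gave log2 levels of -7.37, -0.52, -0.14 and -0.03, and the second -5.75, -1.35, -0.99 and -1.0, in IEL replicates 1 and 2 and SPL replicates 1 and 2. Both probes put IEL replicate 1 lowest and not well above background. The difference between the IEL replicates was at least 38.5-fold by the first and at least 21.2-fold by the second. Lcn2, the gene for lipocalin 2, which binds bacterial siderophores and so withholds iron, read -7.48, -2.91, -2.45 and -2.45. Its SPL replicates differed by -0.005 on the log2 scale, while IEL replicate 2 was at least 7.32-fold above IEL replicate 1. Retnlg, a resistin-like gene transcribed in neutrophils and their precursors, read -5.55, -0.95, -0.52 and -0.25. It too was not well above background in IEL replicate 1, and IEL replicate 2 was at least 24.4-fold above it.

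The remaining genes differed less. Mpo, the gene for myeloperoxidase of the azurophil granule, had log2 levels of -2.89 and -1.89 in IELs and -1.72 and -1.41 in SPLs, and was well above background on every array. The IEL replicates differed by 1.00, or 1.99-fold. Elane, which encodes neutrophil elastase of the same granule, did not rise well above background on any of the arrays, with signals of 1.52, 1.65, 1.42 and 3.0 units. No fold is given for it, and an order among these values cannot be read. Mmp9, the gelatinase of the last granules, read -3.99 and -3.24 in IELs and -2.61 and -2.89 in SPLs by probe 1, which was well above background on all 4 arrays. Probe 2 of Mmp9, printed in 10 spots, read -7.51, -4.07, -3.69 and -4.03, and was not well above background in IEL replicate 1. The probes of this gene disagreed in size, with IEL replicate 2 above IEL replicate 1 by 0.75 on the log2 scale by probe 1 and at least 3.27-fold by probe 2.

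Between the IEL replicates the tested genes differed from 0.75 for Mmp9 to 9.04 for S100a9 on the log2 scale, with IEL replicate 2 the higher for each. The median over the 9 was 5.39, and 4.09 with dim values raised to the floor, beside -0.01 over the 27912 probes. These values rest on the scanner software's background correction. Under normexp, another correction with an offset of 50, the median was 0.07 and 4 of 9 genes turned negative, namely Camp at -0.30, Lcn2 at -0.70, Mpo at -0.28 and Mmp9 at -0.96, whereas S100a8 stood at 3.01 and S100a9 at 5.95. At least 2-fold was reached by 7 of 9, where 11.7% of all probes reached it. With dim values raised to the floor, IEL replicate 1 was at least 16-fold below each of the other arrays for 5 of 9, beside 0.423% of all probes. These differences are of 1 array against 1 and served to choose the genes, so nothing is read from the shares. The SPL replicates, by contrast, differed from -0.29 for Mmp9 to 0.57 for Camp with a median of 0.15. In no gene of the set was SPL replicate 2 at least 2-fold above SPL replicate 1, beside 1.25% of all probes.

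**Figure D2:**
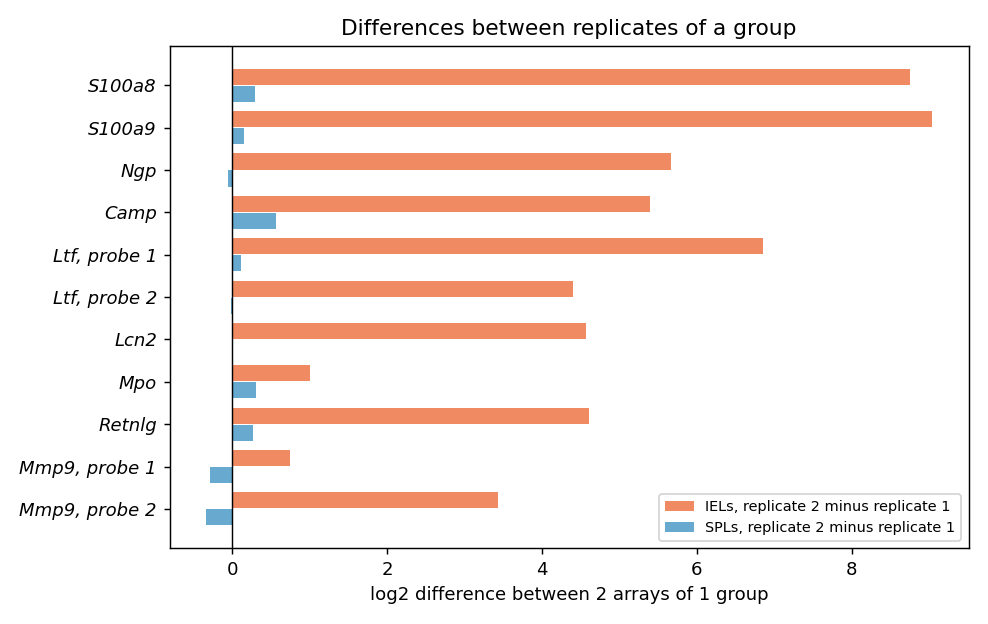
Difference between the 2 replicates of IELs (orange) and of SPLs (blue) for each tested probe, on the log2 scale (horizontal axis), with 1 array on each side and therefore no error bar, and with dim values as measured. The IEL bars reach 9.04 for S100a9, whereas the SPL bars stay between -0.34 and 0.57.

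Compared with SPLs, IELs had lower group means for each of the 9 tested genes. The mean log2 level of S100a8 was -2.04 ± 6.19 in IELs and 2.94 ± 0.21 in SPLs (SD, n = 2), a difference of -4.97. For S100a9 it was 0.35 ± 6.39 and 5.22 ± 0.10, and for Ltf -3.94 ± 4.84 and -0.08 ± 0.08. The SD among IELs thus exceeded the difference between the groups for these genes, whereas the SPL replicates lay close together. With dim values raised to the floor, differences ranged from -4.87 for S100a9 to -0.83 for Mpo, with a median of -2.86. As measured the median was -3.47 over the 9 genes and -0.001 over all probes, and under normexp it was -0.85 over the 9. Both IEL arrays lay below both SPL arrays for 9 of 9, as they did for 24.6% of all probes. A moderated test with limma called 0 of the 27912 probes at an adjusted p below 0.05 (0%), none of them a member. The smallest adjusted p was 0.634 by limma, and at an unadjusted p below 0.05 limma counted 1292 probes higher and 307 lower in IELs.

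The group difference came in unequal parts from the slides. On slide 1, IEL replicate 1 was below SPL replicate 2 by a median of -6.27 on the log2 scale as measured. With dim values raised to the floor the median was -4.90, from -9.46 for S100a9 to -1.10 for Mmp9. There 9 of 9 genes were at least 2-fold lower in IELs, beside 13.7% of all probes. By the scanner software's background correction, S100a8 was at least 467-fold and S100a9 705-fold lower. On slide 2 the median was -0.45, from -0.82 for Camp to -0.18 for Mpo. No gene of the set was 2-fold lower there, beside 0.731% of all probes. SPL replicate 1 was 1.37-fold above IEL replicate 2 for S100a8, 1.21-fold for S100a9 and 1.77-fold for Camp. For 8 of 9 genes IEL replicate 2 lay below SPL replicate 1 by more than the SPL replicates differed, which held for 20.9% of all probes, and the exception was Mpo. Without IEL replicate 1 the median difference between groups was -0.49, and without IEL replicate 2 it was -6.30. The SPL replicates, 1 on each slide, differed by a median of 0.15. Each slide held 1 array of each group, so slide and sample cannot be told apart. In such bulk samples fewer cells of a type and less RNA per cell cannot be told apart.

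**Figure D3:**
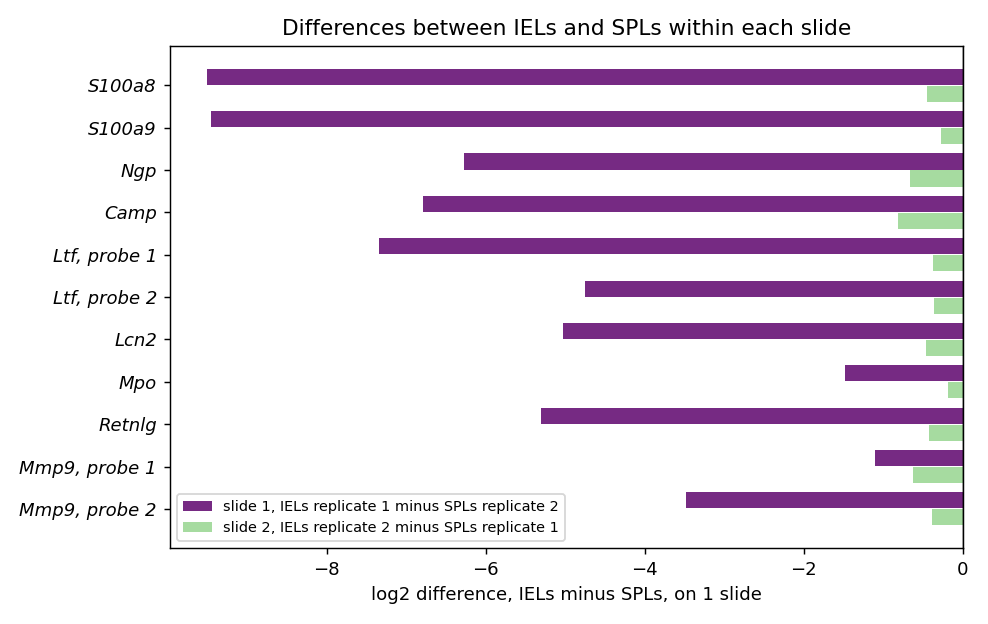
Difference between IELs and SPLs within each slide for each tested probe, as log2 of IELs minus log2 of SPLs (horizontal axis), with 1 array of each group per slide and dim values as measured. On slide 1 (purple) the bars run from -9.50 to -1.10, and on slide 2 (green) from -0.82 to -0.18.

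Other genes of the neutrophil did not all share this profile. Of 3 further azurophil granule genes tested, 0 had both IEL arrays below both SPL arrays, and their median difference between the IEL replicates was -0.28, beside -0.01 over all probes, the value against which the list medians below also stand. Over all probes, 24.6% had both IEL arrays below both SPL arrays. As measured, 11.7% were at least 2-fold higher in IEL replicate 2 than in IEL replicate 1. Counts in the lists and chromosomal stretches below stand beside these shares. Prtn3, the gene for proteinase 3, had log2 levels of -4.18 and -4.46 in IELs and -4.60 and -4.54 in SPLs. Ctsg, for cathepsin G, read -3.69 and -3.23 in IELs and -3.46 and -3.29 in SPLs, so the groups overlapped. Ctsc, for the protease that activates granule serine proteases and that many lymphocytes also make, read 3.19, 2.38, 2.27 and 1.98. Of 14 further specific and gelatinase granule genes, 10 had both IEL arrays below both SPL arrays and 9 stood 2-fold or more higher in IEL replicate 2 than in IEL replicate 1, with a median difference of 2.04. With dim values raised to the floor these were 8 genes and a median of 1.10. Slpi, a secreted inhibitor of neutrophil proteases, read -4.23 and 2.84 in IELs and 3.1 and 2.42 in SPLs. Mmp8, neutrophil collagenase, read -7.67, -4.66, -4.01 and -3.83, with the first value not well above background. Cybb, the membrane subunit of the phagocyte oxidase, differed by at least 3.23 between the IEL replicates and Chil1, a chitinase-like gene, by at least 1.07. For both, IEL replicate 1 was not well above background.

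Among the neutrophil lists, receptors of the cell surface had the widest median difference as measured. Of 12 tested, 10 were at least 2-fold higher in IEL replicate 2 than in IEL replicate 1, and the median difference was 3.15, or 1.68 with dim values raised to the floor. Csf3r, the receptor for granulocyte colony-stimulating factor, had log2 levels of -7.47, -2.35, -1.92 and -2.05, and Clec4d, a C-type lectin, -7.32, -0.82, -0.55 and -0.12. Clec4e read -7.54, -2.62, -2.41 and -1.81, and Fpr2, a formyl peptide receptor, -7.58, -3.46, -3.14 and -3.50. None of these 4 was well above background in IEL replicate 1. Of 14 stefins and other neutrophil cytosolic genes, IEL replicate 2 was above IEL replicate 1 by 2-fold or more for 8 and below it by as much for 1, with a median of 1.10. Raised to the floor, 7 were above by 2-fold and the median was 1.00. The widest was Wfdc21, listed on the array as 1100001G20Rik, at -7.59, -2.23, -1.86 and -1.60.

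Transcription factors that direct granulocyte development differed little as a list. Of 6 tested, 2 were higher by 2-fold or more in IEL replicate 2 and 1 was lower by as much, and the median was 0.16. Cebpa, a driver of the early granulocyte lineage, read -5.29, -4.13, -4.09 and -4.04. Spi1, which encodes PU.1, read -6.10, -4.45, -4.31 and -4.69. Cebpb read 3.74, 2.46, 2.29 and 2.30 and Gfi1 3.37, 2.69, 2.17 and 2.22, both highest in IEL replicate 1. Cebpe, which is needed for specific granules to form, was not among the gene names of the array. Among genes for receptors and inhibitors of the member proteins, 3 of 11 were at least 2-fold higher in IEL replicate 2, and Emb, which encodes the membrane glycoprotein embigin, was highest in IEL replicate 1 at 6.24 against 4.73, 4.37 and 4.71.

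The other S100 genes mostly differed little between the IEL replicates. Of 11 tested, 2 were at least 2-fold higher in IEL replicate 2 than in IEL replicate 1, and the median difference was -0.03. S100a4, a gene of memory lymphocytes and myeloid cells, read -1.61, 3.21, 3.53 and 3.28, and S100a6 read 0.60, 2.62, 2.98 and 2.57. S100g, the calcium-binding protein of absorptive enterocytes, was higher in IELs, at -4.15 and -3.65, than in SPLs, at -5.11 and -7.96. The last of these values was not well above background. On mm9 the S100 genes of chromosome 3 lie between S100a1 and S100a10, in a stretch of 3053 kb at chr3:90315133-93368496. Of 28 other genes tested there, 2 were at least 2-fold higher in IEL replicate 2, with a range from -2.22 to 4.81 and a median of -0.03. Camp, Ngp and Ltf lie together on chromosome 9, in a stretch of 1193 kb at chr9:109749992-110942932. Between them 23 other genes were tested, of which 3 were at least 2-fold higher in IEL replicate 2, with a median of 0.25. These 3 were Tmie at 3.97, Als2cl at 2.48 and Cspg5 at 1.30, named after their values were seen.

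**Figure D4:**
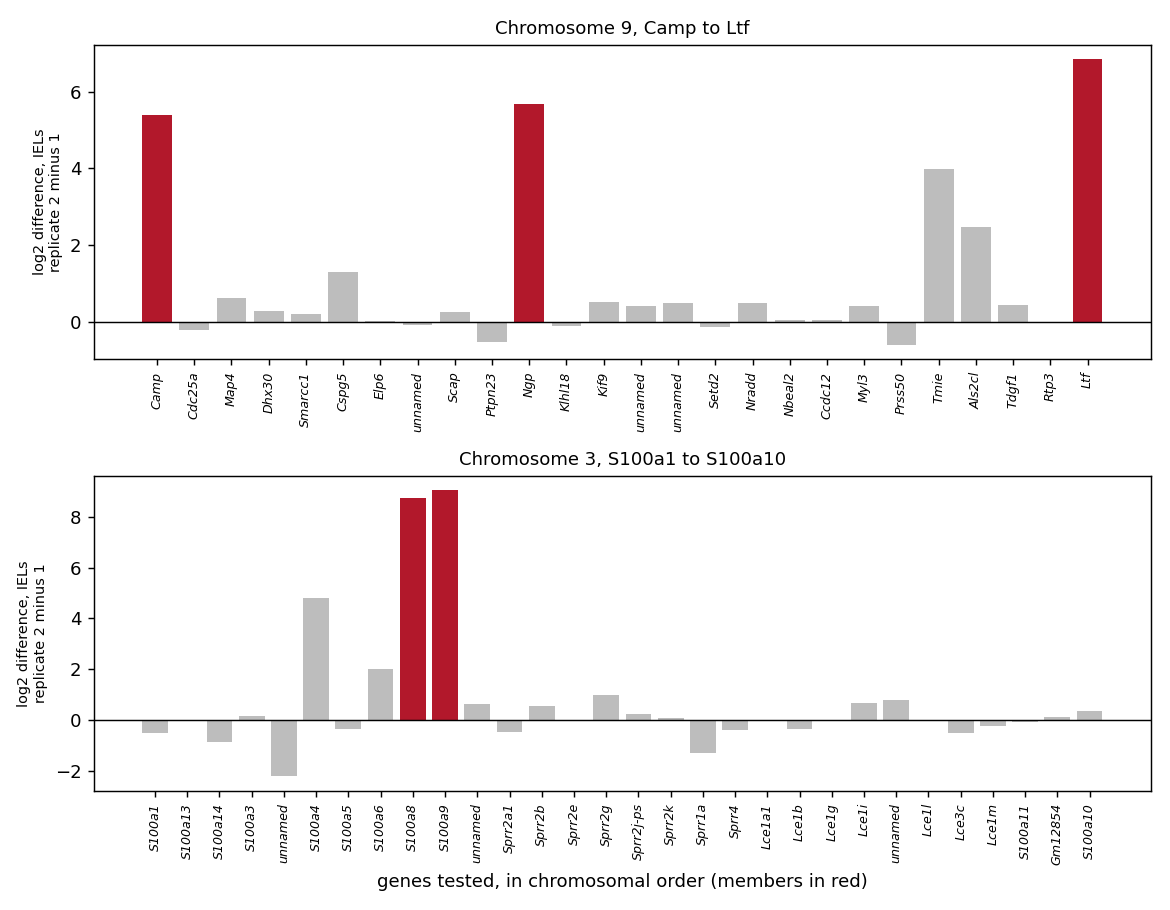
Difference between the IEL replicates (vertical axis, log2 of replicate 2 minus log2 of replicate 1) for the genes tested in 2 stretches of the genome, in chromosomal order, with dim values as measured and the neutrophil granule and S100 genes in red. Camp, Ngp and Ltf stand at 5.39, 5.67 and 6.85 among neighbours with a median of 0.25, and S100a8 and S100a9 at 8.75 and 9.04 among neighbours with a median of -0.03.

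Upstream bases are printed here for the members that lie together on a chromosome. These are S100a8 and S100a9 on chromosome 3 and Camp, Ngp and Ltf on chromosome 9. All 5 were lowest in IEL replicate 1, as were the other tested members. The 250 bases before each RefSeq start site come from build GRCm38.p6 and run 5′ to 3′ on the gene's own strand. Capitals mark matches to TTNCNNAA, a core to which C/EBP factors bind, and to GAGGAA, a core to which PU.1 binds, searched on both strands, and where matches overlap the capitals run on.
S100a8 (chr3:90668821-90669070, plus strand): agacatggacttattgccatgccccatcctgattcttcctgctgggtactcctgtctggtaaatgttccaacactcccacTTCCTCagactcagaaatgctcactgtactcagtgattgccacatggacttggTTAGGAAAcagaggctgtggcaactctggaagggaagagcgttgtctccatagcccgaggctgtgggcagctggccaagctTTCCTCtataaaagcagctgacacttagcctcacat
S100a9 (chr3:90695722-90695971, minus strand): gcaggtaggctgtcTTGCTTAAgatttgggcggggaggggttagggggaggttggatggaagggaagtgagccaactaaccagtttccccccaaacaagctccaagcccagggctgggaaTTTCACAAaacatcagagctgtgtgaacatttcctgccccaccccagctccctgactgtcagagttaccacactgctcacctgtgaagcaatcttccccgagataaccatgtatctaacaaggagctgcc
Ngp (chr9:110419558-110419807, plus strand): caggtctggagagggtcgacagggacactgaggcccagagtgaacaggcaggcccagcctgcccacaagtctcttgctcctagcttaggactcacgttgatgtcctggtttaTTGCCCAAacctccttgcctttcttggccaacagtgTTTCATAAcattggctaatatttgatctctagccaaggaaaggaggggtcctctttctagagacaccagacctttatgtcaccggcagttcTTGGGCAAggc
Camp (chr9:109849457-109849706, minus strand): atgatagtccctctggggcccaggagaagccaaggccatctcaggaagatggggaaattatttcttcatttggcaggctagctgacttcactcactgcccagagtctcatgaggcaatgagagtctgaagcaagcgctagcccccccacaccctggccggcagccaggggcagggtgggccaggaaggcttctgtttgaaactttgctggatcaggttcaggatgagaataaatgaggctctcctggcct
Ltf (chr9:111019042-111019291, plus strand): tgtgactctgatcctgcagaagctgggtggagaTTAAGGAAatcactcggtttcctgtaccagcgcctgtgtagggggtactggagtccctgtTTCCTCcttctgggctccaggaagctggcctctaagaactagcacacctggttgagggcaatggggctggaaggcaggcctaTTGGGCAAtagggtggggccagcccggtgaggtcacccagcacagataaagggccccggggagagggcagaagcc
TTNCNNAA was found upstream of 6 of the 9 member genes for which RefSeq bases were at hand, and in 36.8% of 32851 such upstream windows of all genes. GAGGAA was found upstream of 5 of 9, and in 23.3% of all windows. Ngp held 3 matches to the C/EBP core and S100a8 held 2 to the PU.1 core. Camp held neither in this window. A match is a run of letters and no measured binding, and Mmp9 was not among the genes with upstream bases.

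The genes with profiles most like the mean of the set were sought among 18468 tested genes by the Euclidean distance of 4 centred log2 levels, with dim values as measured. The mean profile was -4.16 in IEL replicate 1 and 1.02, 1.5 and 1.65 in IEL replicate 2 and SPL replicates 1 and 2. The nearest named genes outside the set were Abca1, a cholesterol exporter, at a distance of 0.139, Wfdc21 at 0.158, Trpm1 at 0.220, Nme4 at 0.223, Cmah at 0.234, Alas2 at 0.259, Fam211b at 0.272 and Csf3r at 0.301. The list therefore held Csf3r and Wfdc21 of neutrophils beside Alas2, the first enzyme of haem synthesis in red cell precursors. Among the members Ngp lay nearest to their own mean, at 0.497, and Mmp9 farthest, at 3.885.

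Markers of several other blood cells were, like these genes, lowest in IEL replicate 1, but not all followed them between the SPL replicates. The summed level of the 9 members, in multiples of the array's 75th percentile, was 0.309 in IEL replicate 1 and 36.6 in IEL replicate 2, and 45.4 and 51.2 in SPLs. On all arrays but IEL replicate 1, S100a8 and S100a9 made up most of this sum. For 8 erythroid markers the sum was 1.19 and 75.9 in IELs and, in SPLs, at most 117. It was 4.04 and 25.9 in IELs and 32.3 and 25.8 in SPLs for 7 B cell markers, and 1.28 and 9.14 against 11.8 and 5.50 for 12 monocyte and macrophage markers. Each of these lists was lowest in IEL replicate 1. Most of the erythroid sum came from Hba-a1 and Hbb-b1. Over the lists the median difference between the IEL replicates was 4.21 for erythroid, 3.66 for B cell, 3.36 for monocyte and macrophage, 2.41 for platelet and 1.59 for eosinophil, basophil and mast cell markers. Among the tested B cell, platelet and macrophage markers, Ms4a1, Fcrla, Cr2, Pf4, Ppbp, Gp9, Cd163, C1qa and Cx3cr1 were not well above background in IEL replicate 1, and each was well above it in IEL replicate 2. The 9 CD8 T cell markers had a median of 0.19, and dendritic cell markers 0.46. Epithelial and Paneth cell markers ran opposite, at -1.95 and -4.22. Between the SPL replicates the neutrophil genes differed by a median of 0.15, erythroid markers by 0.1, platelet markers by 0.62 and B cell markers by -0.45. Monocyte and macrophage markers differed there by -1.12, Paneth cell markers by -1.17 and epithelial markers by -1.85. The part of any of these cells in the levels of the neutrophil genes was not tested.

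**Figure D5:**
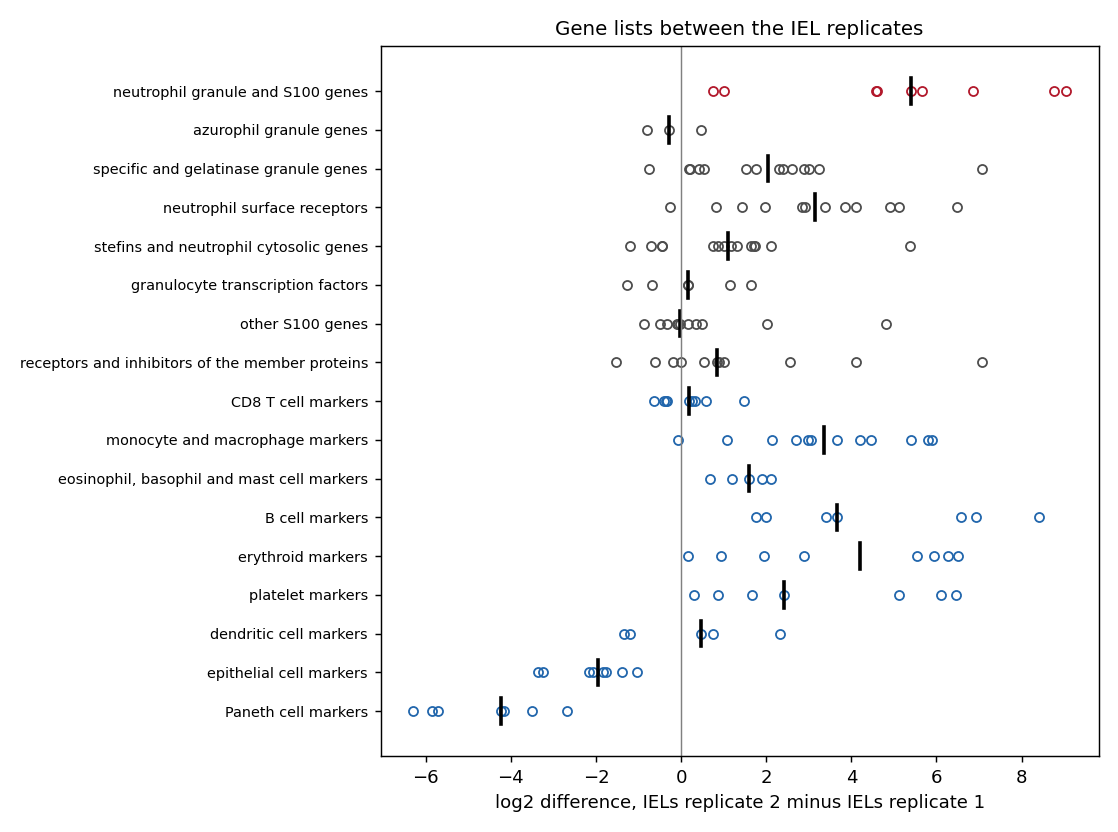
Difference between the IEL replicates (horizontal axis, log2 of replicate 2 minus log2 of replicate 1) for genes of each list, with 1 open point per gene and a black bar at the list's median. The neutrophil granule and S100 genes (red) have a median of 5.39, CD8 T cell markers 0.19 and Paneth cell markers -4.22, all with dim values as measured.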

How the data were processed

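Total RNA of 4 sorted samples (2 per group) was hybridised to Agilent 1-colour whole mouse genome arrays. The deposited scanner files hold processed signal intensity per spot, which the authors obtained with Feature Extraction (10.7.1.1 per the labels, 10.7.3.1 per the file headers) after background subtraction. A deposited table of log2 values from the authors ranked the probes of each array as these signals did (Spearman's correlation of 1 when rounded). Its values ran from 0.53 to 18.84 on every array, and it served as an alternative. Spots marked as outliers were dropped, log2 signals were scaled to each array's 75th percentile over non-control spots, and spots of a probe were averaged. Probes were tested with limma 3.58.1 in R 4.3.3 (two-sided, Benjamini-Hochberg over 27912 probes, threshold 0.05), which was checked on simulated data. The number of arrays limits the precision, and with 2 samples per group p-values measure the spread between these samples. Alternatives were other scalings, normexp background correction, other filters, blocks and omitted samples. The members and gene lists were chosen with earlier results of these data known. Where probes of a gene differed, the tested one of highest mean level stood for it, and up to 4 genes of a list with the widest group difference were named. Genes that stand closest to the mean profile were the 10 nearest, of which 2 bear only a sequence identifier and are not named.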

Additional observations from a re-analysis of the deposited data

How the results depend on the processing

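Medians over the members were taken again under quantile normalization, scaling to the median, the 75th percentile of bright probes and the authors' values. They were also taken with marked spots kept, a gene's probes averaged, or no filter on dim probes. These medians ran from -3.7 to -3.16 between IELs and SPLs and from 5 to 5.99 between the IEL replicates. Between the SPL replicates they ran from 0.12 to 0.21. With normexp (offset 50) the median difference was -0.85 between IELs and SPLs, -0.16 between the SPL replicates and 0.07 between the IEL replicates, and 4 of 9 IEL replicate differences turned negative (Camp -0.30, Lcn2 -0.70, Mpo -0.28, Mmp9 -0.96), while those of S100a8 and S100a9 shrank to 3.01 and 5.95. Without spots over 20 units below their local background, the IEL replicate median under normexp was 1.36, with 1 gene negative. Requiring a probe well above background on all 4 arrays left 3 genes, with medians of -0.87 between groups and 1.00 between the IEL replicates. Leaving out 1 sample at a time, the median between groups ran from -6.30 to -0.49, the former without IEL replicate 2 and the latter without IEL replicate 1, and limma called from 0 to 5453 probes, the latter (2390 higher, 3063 lower) without IEL replicate 2, where IEL replicate 1 is assumed to vary like the SPLs. Without adjustment limma gave 1599 probes and the methods' t-test 819 (470 higher, 349 lower). With the replicate block limma called 0 probes, as with the slide as a block and with an intensity trend, and the methods' t-test gave 0 after Benjamini-Hochberg. Deviations of replicate 1 in IELs and in SPLs correlated at r = -0.025 across probes. This rests on 1 difference per group, so it cannot decide whether same-numbered samples were paired. Of 120 alternative values for single genes between groups, 120 were negative. These re-use the same arrays and the genes chosen from them, so the count supports nothing. Elane, which was not tested, was left out of it. Signals near background limit IEL replicate 1, where folds of 6 genes are bounds only under the scanner software's background correction. The cause of these shifts was not tested.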
